A study of Mus musculus with 6 samples.

Results

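E2A regions in exons, in untranslated regions (UTRs) and just downstream of genes made up 850 of 12298 consensus regions, or 6.91% (95% Wilson interval 6.48 to 7.37). A consensus region was a peak of wt replicate 3 that overlapped a peak of wt replicate 1 or 2 by at least 1 bp, and its class was the one the authors' table gives it. The 850 regions were 447 exon, 194 3' UTR, 70 5' UTR and 139 downstream regions. They were taken from 24194 peaks of wt replicate 3, and the 5 peak lists together held 91185 peaks.

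Chromatin immunoprecipitation and sequencing (ChIP-seq) with 1 antibody against E2A was carried out in neural stem cells grown from C57BL/6J mouse embryos of stage E12.5. The groups were cells labelled as E12 knockout (E12KO, 1 library), cells labelled as E47 knockout (E47KO, 1 library) and wild type cells (wt, 3 libraries). The medium of all groups held 20 ng/ml of FGF-2 and 20 ng/ml of EGF. The lists held 25229 peaks in E12KO, 22176 in E47KO, and 6814, 12772 and 24194 in wt replicates 1, 2 and 3. Read depth is unknown. With 1 library per knockout there is no replicate error for a knockout and no test between genotypes, and the sources do not say whether the wt libraries came from separate cultures. Intervals given below cover counting error only.

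Tcf3 encodes E2A, a transcription factor of the basic helix-loop-helix (bHLH) family. Its splice forms E12 and E47 differ in the DNA-binding domain. Both bind E-box sequences as dimers, often with a tissue-specific bHLH partner, and Id proteins hold them off DNA. In neural progenitors E proteins are the dimer partners of proneural factors, and the Notch pathway keeps progenitors undifferentiated. A binding site in an exon or a UTR is a stretch of DNA: the class says where the peak falls on the gene model, not that the transcript is bound.

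MicroRNAs are small RNAs that pair with messenger RNAs through a seed at bases 2 to 8. A microRNA gene was the nearest start for 18 of the 850 regions (2.12%, 1.34 to 3.32), against 1.67% of all 12298 consensus regions, a share that the interval holds. The mature sequences below show what some of these genes encode (RefSeq, GRCm38.p6), with the seed in capitals; each is written 5′ to 3′. Mir9-1, Mir9-3 and Mir125b-1 came from the rule for named genes, and Mir99a, Mir125b-2 and Mir17 were chosen after their values were seen.
mmu-miR-9-5p: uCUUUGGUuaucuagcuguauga
mmu-miR-9-3p: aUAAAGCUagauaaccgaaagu
mmu-miR-125b-5p: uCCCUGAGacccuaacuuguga
mmu-miR-99a-5p: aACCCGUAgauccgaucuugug
mmu-miR-17-5p: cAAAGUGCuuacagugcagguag

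No seed is shared among these 5 sequences. miR-9 is a brain-enriched microRNA of neural progenitors, and Mir9-1 and Mir9-3 are separate genes for the same mature sequences. Exon 3 of 3 of the transcript carrying the Mir9-3 gene ID held 2 regions on chromosome 7 (86675850 to 86677186 and 86679000 to 86681748), at 27.6-fold and 19.1-fold. Fold here and below is the authors' fold enrichment of the overlapping peak in wt replicate 1, the only list with scores. The stronger one measured 1265 bp in E12KO and 1420 bp in E47KO, against 1068, 1068 and 1337 bp in wt replicates 1, 2 and 3. The Mir9-1 region on chromosome 3 (88024433 to 88027416), 4913 bp downstream of its start, was 22.5-fold enriched and measured 3695 bp in E12KO and 3172 bp in E47KO, against 1495, 1847 and 2984 bp in wt replicates 1, 2 and 3. The file places it in exon 2 of 2 of a transcript carrying the gene ID of the neighbouring Mir3093.

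A region in exon 2 of 5 of a transcript without a gene ID, 153648 bp downstream of the Mir125b-1 start (chromosome 9, 41543657 to 41544909), was 33.7-fold enriched, and another on the same chromosome (41508325 to 41509276) was absent from wt replicate 1. The last exon, 6 of 6, of the host gene Mir99ahg held a 24.4-fold region, 4047 bp upstream of Mir99a (chromosome 16, 77593239 to 77595134). On the same chromosome a 3' UTR region (77851735 to 77853354) had Mir125b-2 as its nearest start, 205217 bp away, at 10.5-fold. Mir17, of the proliferation-linked miR-17 cluster, had a downstream-class region 1070 bp upstream of its start that was listed in both knockouts and in wt replicates 2 and 3. All of these microRNA regions had a peak in E12KO and in E47KO, against 92.1% of all consensus regions with a peak in both.

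Nearly all exon, UTR and downstream regions were still listed in cells labelled as lacking a splice form, in the same proportion as consensus regions in general. A peak was found in E12KO at 820 regions (96.5%, 95 to 97.5), against 96.7% of all consensus regions. In E47KO it was found at 796 regions (93.6%, 91.8 to 95.1), against 93.6% of all. Both knockouts had a peak at 787 regions (92.6%, 90.6 to 94.2), against 92.1% of all. The peak was missing from E12KO alone at 9 regions (1.06%, against 1.48% of all), from E47KO alone at 33 (3.88%, against 4.61%), and from both at 21 (2.47%, against 1.79%). The interval of each of these shares holds the share of all consensus regions.

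**Figure D1:**
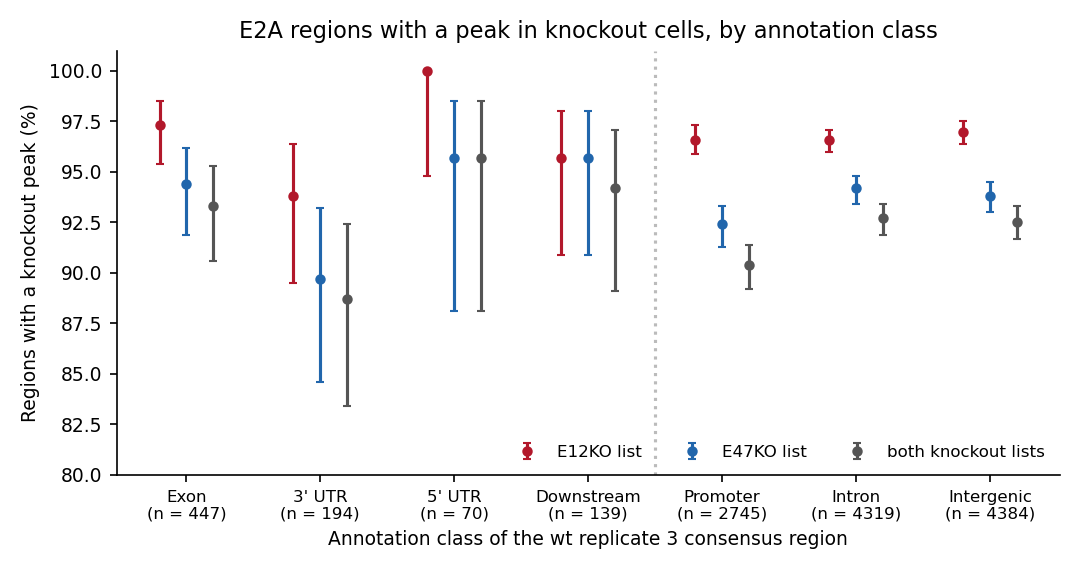
Share of wt replicate 3 consensus regions with a peak in E12KO, in E47KO and in both lists (vertical axis, percent, starting at 80) for each annotation class. Points are shares, bars are 95% Wilson intervals, and the dotted line separates the exon, UTR and downstream classes from the other 3. The 3' UTR class has the lowest shares: 93.8% in E12KO and 89.7% in E47KO, with intervals that end below the 96.7% and 93.6% of all consensus regions, and 88.7% in both, with an interval that holds the 92.1% of all.

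Regions in 5' UTRs had an E12KO peak at 70 of 70 and an E47KO peak at 67 of 70 (95.7%, 88.1 to 98.5). Exon regions had a peak in both knockouts at 417 of 447 (93.3%, 90.6 to 95.3) and downstream regions at 131 of 139 (94.2%, 89.1 to 97.1). The 3' UTR regions were lowest, with an E12KO peak at 182 of 194 (93.8%, 89.5 to 96.4, against 96.7% of all consensus regions) and an E47KO peak at 174 (89.7%, 84.6 to 93.2, against 93.6%). Both knockouts had a peak at 172 (88.7%, 83.4 to 92.4, against 92.1%), and both lacked one at 10 (5.15%, 2.82 to 9.23, against 1.79%). Of these intervals, the one for a peak in both knockouts holds the share of all consensus regions and the other 3 do not; the difference was not tested. Of the 3' UTR regions, wt replicate 2 listed 162 of 194 (83.5%), against 90.0% of all 850. Among 3' UTR regions that wt replicate 2 did list, both knockouts had a peak at 155 of 162 (95.7%), and among those in all 3 wt lists at 72 of 72. The part of the wt lists in the lower 3' UTR share was not tested beyond these values.

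Presence in the knockouts moved with support in wt. Every wt list held 330 of the regions, and of these E12KO had a peak at 330 and E47KO at 326 (98.8%, 96.9 to 99.5); of all 4229 consensus regions in all 3 lists, 98.2% had a peak in both knockouts. Of the 435 regions in wt replicates 2 and 3 only, 94.3% were in both knockouts. Of the 85 in wt replicates 1 and 3 only, E12KO had 80%, E47KO 63.5% and both 60%. A wt list left out of the overlap fell short of the knockouts: of the 415 regions shared by wt replicates 1 and 3, 95.9% were in E12KO and 91.6% in E47KO, against 79.5% in wt replicate 2, a shorter list. Of the 63 regions missing from a knockout, 59 (93.7%) were absent from wt replicate 1 or 2, against 461 of the 787 regions in both knockouts (58.6%). Consensus regions in general moved the same way. Of the 4229 in all 3 wt lists, 0.236% were missing from E12KO only, 1.44% from E47KO only and 0.166% from both. Of all 12298 these shares were 1.48%, 4.61% and 1.79%. Shares for regions absent from a wt list were computed for exon, UTR and downstream regions only.

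Of the regions missing from a knockout, 4 were in all 3 wt lists, and these were missing from E47KO only. The region in exon 11 of 13 of Wdr41 (chromosome 13, 95787862 to 95788245) was 8.29-fold enriched and spanned 589 bp in E12KO, against 410, 369 and 384 bp in wt replicates 1, 2 and 3. Others, named after their values were seen, were in exon 6 of 12 of the transporter gene Slc6a17 (4.77-fold) and in exon 4 of 6 of the mitochondrial carrier gene Slc25a43 (4.82-fold). All 4 were present in E12KO.

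The next regions missing from a knockout were listed in wt replicates 1 and 3 and not in wt replicate 2, except where stated. UTR and downstream regions are named by the nearest start, here and below. Of those missing from E47KO only, the highest by −log10 q were in exon 10 of 25 of the bicarbonate transporter gene Slc4a5 (13.6-fold), in the 3' UTR class at Shf (11.7-fold) and at Stmn1, which encodes the microtubule-destabilizing protein stathmin (10.9-fold), and, lower, in exon 11 of 17 of Camsap1 (9.61-fold) and the 3' UTR class near Chst5 (6.76-fold). The Stmn1 region (chromosome 4, 134029623 to 134030075) was 330 bp wide in E12KO, against 534 bp in wt replicate 1 and 453 bp in wt replicate 3.

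Of those missing from E12KO only, the highest by −log10 q was in the 3' UTR class (9.42-fold). It lay outside the nearest transcript, that of the co-chaperone gene Dnajc7. Next were exon 2 of 7 of a transcript without a gene ID upstream of Sned1 (7.83-fold) and a 3' UTR region nearest to Gipr (5.34-fold). Gipr is the receptor gene for the gut hormone GIP. Atrnl1 (exon 13 of 29), Mgrn1 (exon 5 of 17) and an exon near Rcan1 followed, listed in wt replicates 2 and 3 and not in wt replicate 1. Missing from both was a downstream-class region (12.8-fold) whose nearest start, 66534 bp away, was that of Smad5, a BMP signal transducer gene. Others missing from both were in the 3' UTR class, named by nearest start: 2810459M11Rik (11.9-fold), Zfp276 (9.15-fold) and Cyb561d1 (6.28-fold). The rest were in exon 19 of 22 of Ttc12 (7.04-fold) and in exon 1 of 2 of a transcript 24971 bp from the Rhcg start (6.49-fold). The widths of these last 6 in wt replicate 3 ran from 279 to 556 bp.

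Peaks missing from a knockout were narrow. The median wt replicate 3 width was 406 bp for regions missing from either knockout and 749 bp for regions in both. Under 300 bp, 12 of 26 exon, UTR and downstream regions were in both knockouts (46.2%, 28.8 to 64.5), against 58.1% of the other consensus regions (52.8 to 63.2). At 1000 bp or more, 211 of 213 were (99.1%), against 98.1% of the others. Fold enrichment gave the same order: both knockouts had a peak at 76 of 90 regions under 6-fold (84.4%), 152 of 171 from 6 to 10 (88.9%), 117 of 122 from 10 to 20 (95.9%) and 32 of 32 at 20-fold or more. Shares by fold were computed for exon, UTR and downstream regions only.

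**Figure D2:**
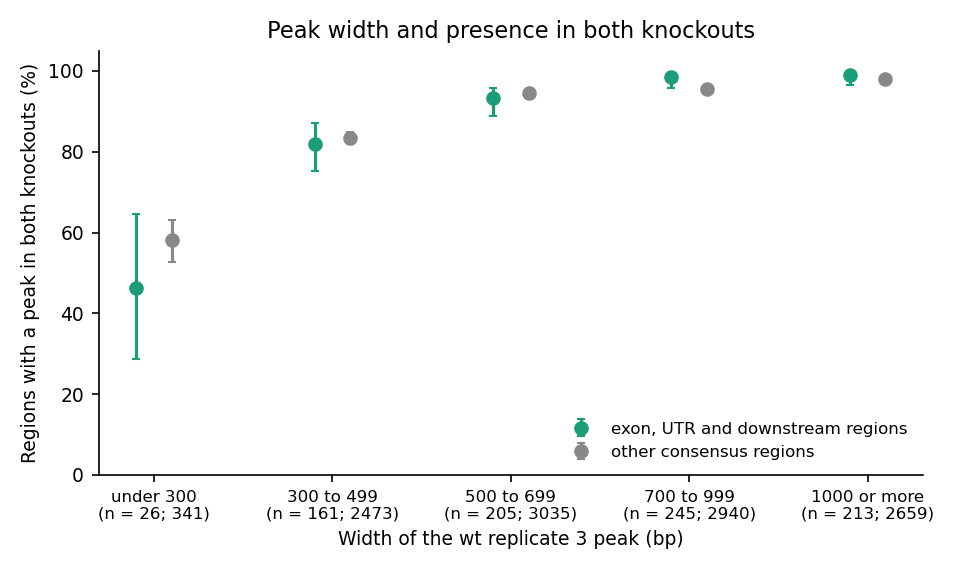
Share of regions with a peak in both knockouts (vertical axis, percent) by width of the wt replicate 3 peak (horizontal axis, bp), for exon, UTR and downstream regions (green, left) and the other consensus regions (grey, right). Bars are 95% Wilson intervals, and n is given for each in that order. The share rises with width in both sets, and the intervals of the 2 sets overlap in every bin.

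The authors' scores ranked the members as follows. Of the 415 regions with a wt replicate 1 peak, the median fold enrichment was 8.19 (interquartile range 6.21 to 12.4), against 7.83 for the other consensus regions. The medians were 8.66 for exon, 7.58 for 3' UTR, 7.73 for 5' UTR and 8.05 for downstream regions, with 7.04 at promoters, 8.04 in introns and 8.20 between genes. The median width in wt replicate 3 was 727.5 bp for members and 691 bp for other regions, with 886 bp at promoters.

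**Figure D3:**
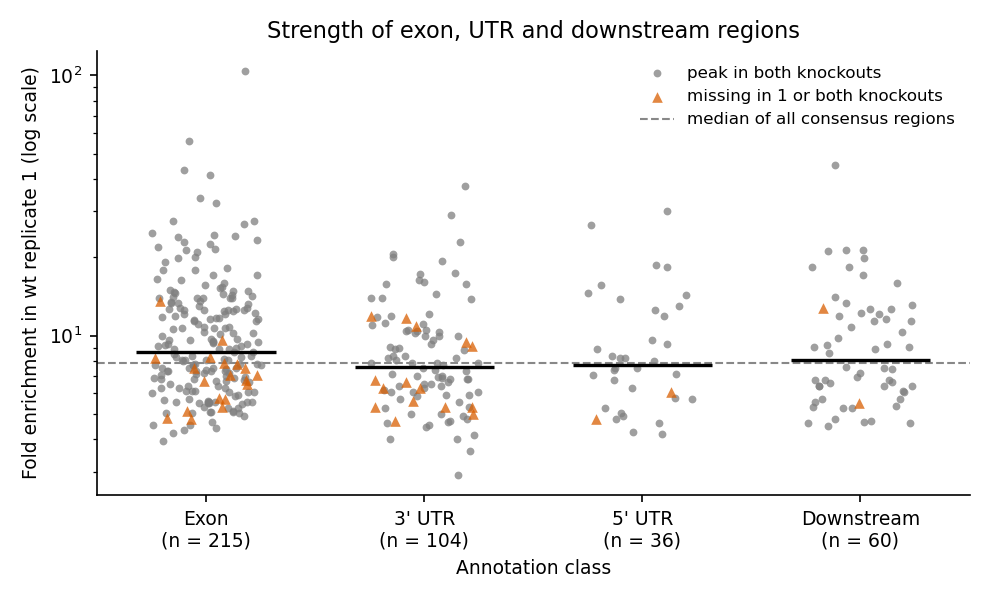
Fold enrichment of the wt replicate 1 peak (vertical axis, log scale) for each exon, 3' UTR, 5' UTR and downstream region, 1 point per region. Black bars are class medians, the dashed line is the median of all consensus regions, and orange triangles mark regions missing from 1 or both knockouts. The triangles have a median of 6.67-fold and reach 13.6-fold.

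Ranked by −log10 q, the strongest of the 415 regions with a wt replicate 1 peak, at 104-fold, was on chromosome 17 (9967688 to 9970163), in exon 1 of 4 of a transcript without a gene ID whose nearest start was Pabpc6, 105119 bp away. It measured 2415 bp in E12KO and 2417 bp in E47KO, against 1997, 1900 and 2476 bp in wt replicates 1, 2 and 3. Next came exon 3 of 3 of such a transcript 1372 bp upstream of Clip3 (56.2-fold), exon 5 of 9 of Tmem255b (41.6-fold), exon 2 of 7 of Traf4, which encodes an adaptor of receptor signalling (43.2-fold), and a downstream region nearest to Rgr, a retinal opsin-like receptor gene (45.1-fold). The Traf4 region met promoter-class peaks in the knockouts. They spanned 4285 bp in E12KO and 4030 bp in E47KO, against 1013, 627 and 1291 bp in wt replicates 1, 2 and 3. Stat3, the transcription factor of cytokine and astrocyte-inducing signals, held a region in exon 12 of 24 (32.4-fold) whose nearest start was that of its neighbour Stat5a. It was named after its value was seen.

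For UTR and downstream regions the tables name no host transcript, so the gene given is that of the nearest start. Of these regions, 88 of 194 in the 3' UTR class and 25 of 70 in the 5' UTR class lay outside the nearest transcript. Of the 139 downstream regions, 88 lay within 3 kb of the end of the named transcript. By −log10 q, the strongest of the 3' UTR class were nearest to Bag1, a co-chaperone gene (37.7-fold), Prr36 (29.2-fold), the syntaxin gene Stx6 (19.4-fold) and 9030624J02Rik (22.9-fold). By the same rank, those of the 5' UTR class were nearest to the chloride channel gene Ttyh1 (30.1-fold), Tmbim1 (18.4-fold), Dvl3 (26.6-fold) and Chst3 (18.6-fold). Dvl3 encodes a Wnt signal transducer. The strongest downstream regions were, again by −log10 q, nearest to Rgr, Pigv (21.4-fold), Tox3 (18.4-fold) and the progenitor factor gene Sox21 (21.1-fold). Every one of these had a peak in all 5 lists. Of all consensus regions in all 3 wt lists, 98.2% had a peak in both knockouts. An exon 2 of 2 of a transcript 77795 bp upstream of Etv5, an ETS factor of FGF signalling, was 27.6-fold enriched and likewise in all 5.

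Members began at 1010 bp from the nearest start, while promoter regions ended at 990 bp, so exon sequence closer to a start was counted as promoter and not as exon. The median distance of members to the nearest start was 13191 bp, against 21914.5 bp for the other consensus regions. The others mix promoter regions (median 0 bp) with intron (29234 bp) and intergenic regions (53037 bp), so this contrast follows partly from the classes chosen. Among members the median was 18151 bp for exon, 9656 bp for 3' UTR, 7440 bp for 5' UTR and 10605 bp for downstream regions. The nearest start is not always that of the gene hit: of the 332 exon regions whose host transcript had a gene ID, 90 (27.1%) had another gene as nearest start.

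Among those 332 the exon was internal at 306 (92.2%), the last at 18, the only exon at 5 and the first at 3. The median exon number was 7, and the median exon count of the transcripts, taken separately, was 14. Exon 2 held 34 of the regions, exon 3 held 58, and 90 lay beyond exon 10. The most distal was exon 99 of 106 of Ubr4, a ubiquitin ligase gene, which was chosen after its value was seen. Transcripts without a gene ID had fewer exons, with a median of 3. Of their 115 regions, 73 (63.5%) were in the first exon and 17 in the last. Exon sequence near a nearest start was already counted as promoter. The parts of exon number and of the promoter class in this contrast were not tested. Both knockouts had a peak at 284 of the 306 internal exons with an ID (92.8%) and at 69 of the 73 in the first exon without one (94.5%).

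**Figure D4:**
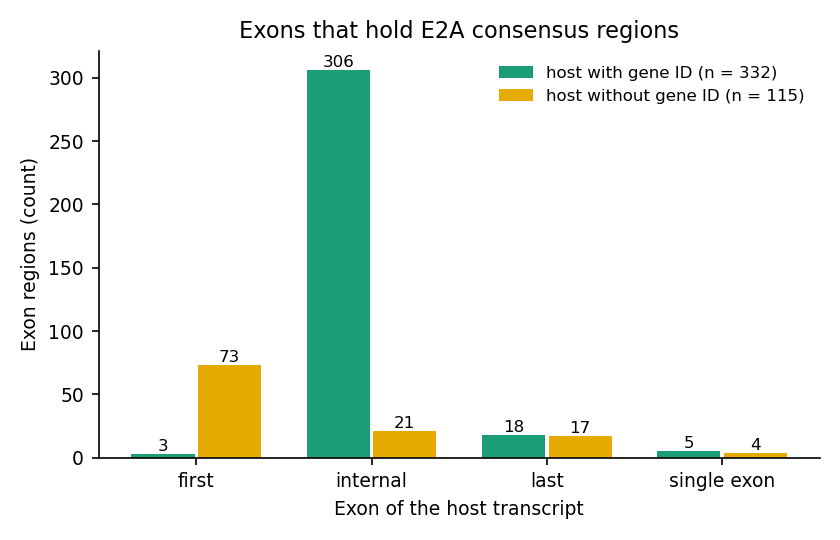
Number of exon regions (vertical axis) by position of the exon in its host transcript, for transcripts with a gene ID (green, n = 332) and without one (yellow, n = 115). Internal exons dominate with an ID (306), the first exon without one (73). The median transcript has 14 exons with an ID and 3 without one.

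The class of a region depended on the list read. Of the exon regions with a peak in each other list, the overlapping peak was also called exon at 89.7% in E12KO and 86.0% in E47KO, against 62.8% in wt replicate 1 and 69.1% in wt replicate 2, where 66 and 113 of the peaks were called intron. The 3' UTR call was steadier, at 95.6% in E12KO and 96.0% in E47KO, against 76.9% in wt replicate 1 and 87.7% in wt replicate 2. Of the 736 members listed in wt replicates 2 and 3 and both knockouts, 535 (72.7%) kept 1 class in all 4. Peaks of wt replicates 1 and 2 were the narrower ones: in the 326 members in all 5 lists the median widths were 980.5 bp in E12KO and 852.5 bp in E47KO, against 493, 598.5 and 897 bp in wt replicates 1, 2 and 3. The part of peak width in the change of class was not tested. By each list's own annotation these classes took 6.36% of peaks in E12KO and 6.17% in E47KO, against 6.07% ± 0.657 in wt (SD, n = 3). Wt replicate 1 is annotated in another format, and 2.17% of its peaks were called downstream, against 1.03% to 1.14% in the other lists. The part of the annotation format in the wt replicate 1 values was not tested.

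**Figure D5:**
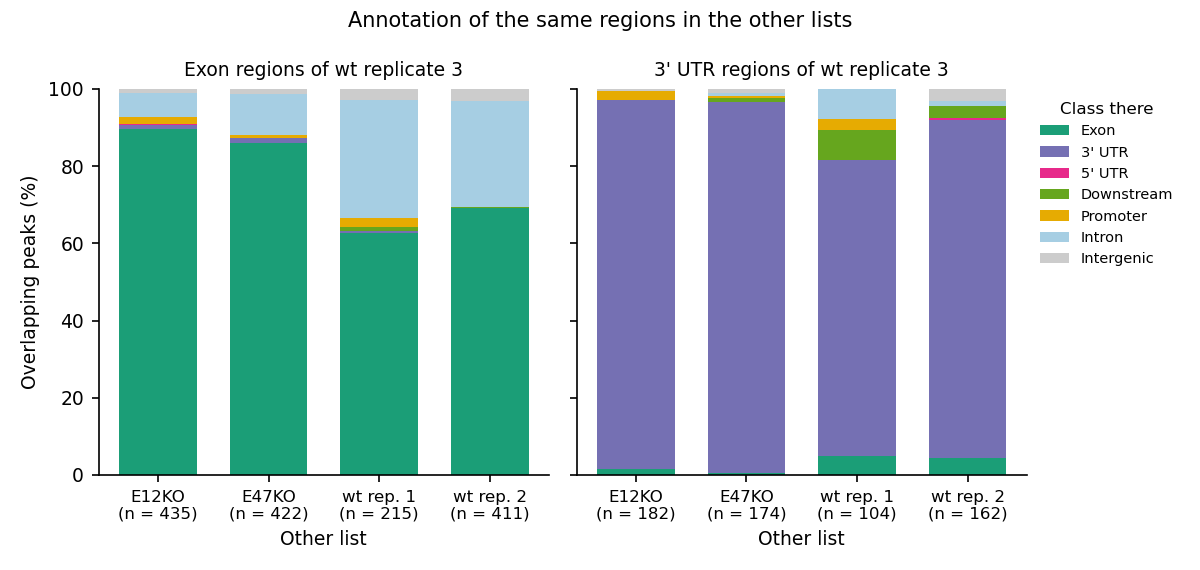
Class given to the overlapping peak in each other list (vertical axis, percent of overlapping peaks), for wt replicate 3 exon regions (left) and 3' UTR regions (right). Exon regions are called intron in 30.7% of wt replicate 1 and 27.5% of wt replicate 2 peaks, and 3' UTR regions mostly keep their class.

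Genes hosting or nearest to a member numbered 862, of which 792 had 1, 65 had 2 and 5 had 3. The 5 were Kdm6b, a histone demethylase gene, the cytoskeletal linker gene Dst, Cdhr3, Mthfd1l and the neural POU factor gene Pou3f1. Of the 3 regions nearest to the Kdm6b start, 1 lay in exon 49 of 86 of the neighbouring dynein gene Dnah2 (11.6-fold), 1 was classed as 5' UTR and 1 as downstream. The 2 Dst exon regions (exons 20 and 21 of 98) lay under a single 2307-bp peak of E12KO, and 2 of the Mthfd1l regions (exons 2 and 3 of 28) under a 2226-bp one, so these neighbours are not independent. All 3 Pou3f1 regions were in exons of transcripts without a gene ID, from 86227 to 205988 bp upstream. All 15 of these regions had peaks in both knockouts, against 92.1% of all consensus regions.

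Among gene lists, the Notch pathway had a member at 8 of 32 genes (25%), against 3.68% of 21900 protein-coding genes in the RefSeq table. A gene was counted if it hosted a member or was its nearest start, at any distance. The lists hold developmental genes picked with earlier results of these data known, and no list was tested. Notch1, the receptor of the pathway in progenitors, carried regions in exons 2 and 3 of 34 (chromosome 2, 26357058 to 26358309 and 26340735 to 26343904) at 10.8-fold and 23.3-fold. The exon 3 region spanned 2982 bp in E12KO and 3066 bp in E47KO, against 1167, 1803 and 3170 bp in wt replicates 1, 2 and 3, and was called exon in wt replicate 3 and E12KO but intron in the other 3 lists. Heyl, a bHLH repressor induced by Notch, had one in exon 2 of 5 (−log10 q 28.0), and the effectors Hes1 and Hes3 had weak ones in the last exon (5.10-fold and 5.56-fold). The Hes1 region fell within a 4734-bp peak in E12KO and was absent from wt replicate 2. Named after their values were seen, the other 4 were exon 12 of 34 of Notch2, exon 28 of 30 of Notch4, a region 5973 bp upstream of the ligand gene Dll4 and one 74705 bp upstream of the coactivator gene Maml3, none with a wt replicate 1 peak. All 9 regions were in both knockouts, against 92.1% of all consensus regions.

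E proteins and Id factors had members at 2 of 7 genes. Tcf4, an E protein gene, held one in exon 10 of 20, listed in all but wt replicate 1. Id4 was the nearest start for 2 distant regions, 350284 and 214872 bp upstream. The nearer was narrow, 273 bp, 8.19-fold enriched, and missing from E47KO and from wt replicate 2.

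Stem cell markers had 2 of 20. Nes, the gene of the intermediate filament nestin, carried a region in exon 3 of 5 (9.22-fold) that E12KO covered with a 4780-bp peak and E47KO with 1875 bp, against 702, 1376 and 1510 bp in the wt replicates 1, 2 and 3. Sox1 was the nearest start for exons 5 and 7 of 8 of its overlapping transcript Sox1ot (24.2-fold and 6.05-fold). Astrocyte markers had 2 of 16, Nfib (exon 2 of 10, missing from E47KO and from wt replicate 1) and Sparcl1. Neuronal transcription factors had 4 of 26, among them exon 38 of 39 of the channel gene Trpm6, 111211 bp from the Rorb start (14.6-fold).

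Wnt genes had 6 of 39 (15.4%), led by Dvl3. Next were exon 11 of 12 of Atxn10, with Wnt7b as nearest start 115664 bp away (22.9-fold), and exon 8 of 9 of the ubiquitin ligase gene Znrf3 (15.4-fold). The hedgehog, BMP and TGF-β list had 6 of 41, axon guidance 4 of 48 and adhesion and matrix genes 8 of 51. FGF and EGF signalling had 3 of 25, all as nearest starts only. These were Etv5, Spry2 and Dusp6, whose regions lay 77795, 264667 and 65322 bp away. Chromatin regulators had 6 of 41, with exons 2 and 5 of 39 of Chd3 at 24.7-fold and 12.1-fold and a transcript near Kdm2b at 21.3-fold. Cell cycle drivers had 2 of 25 and CDK inhibitors 1 of 19, again named by the nearest start. The regions lay 14048 bp from the E2f1 start (18.4-fold), 9311 bp from that of Ccnd1 and 7728 bp from that of Cdkn1b (4.22-fold). The remaining lists were near or below that background: ribosomal protein genes had 1 of 40 (2.50%), skeletal muscle genes 1 of 21 (4.76%, Mef2a, whose factor is also present in neurons), and lymphoid E2A targets, endothelial and microglia markers 0 of 21, 0 of 14 and 0 of 14.

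The rule's threshold had few regions near it. Of 1538 wt replicate 3 peaks in these classes, 688 overlapped no peak of wt replicate 1 or 2. The shortest overlap of a member was 6 bp, downstream of Tomm40, where the wt replicate 2 peak was itself only 6 bp wide. The nearest excluded peak was 98 bp from a peak of wt replicate 1 or 2. The excluded peaks had a median width of 423.5 bp, and 71.4% had a peak in E12KO, 57.7% in E47KO and 50% in both. By chromosome the share of consensus regions in these classes ran from 11.9% on chromosome 19 to 3.24% on X.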

How the data were processed

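Fixation of the neural stem cells used EGS (1.5 mM, 20 min) and then formaldehyde (1%, 10 min), per the labels' protocols. Precipitation used 1.5 µg of antibody, and libraries came from 2 ng of ChIP DNA with inserts of 360 to 600 bp. The submitters' processing notes name the mm9 build, MACS2 2.1.0, BWA 0.7.13 and Picard 1.119, and no settings are given in these sources. Peaks were deposited per library, with widths and signed distances in bp. The deposited table of wt replicate 1 alone gives each peak's fold enrichment (a ratio), pileup signal and −log10 p and −log10 q, as the authors' caller wrote them. Its annotation format differs from that of the other 4 tables. The input library was not analysed here.

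Overlaps, counts, medians and 95% Wilson intervals were computed with Python 3.11.15, pandas 2.3.3 and scipy 1.17.1; the overlap code was tested on simulated data. Where a region met several peaks of a list, its width there spanned them, its class was that of the longest overlap, and its score that of the highest −log10 q. Gene IDs were named from RefSeq (GRCm38.p6, names, gene class and microRNA sequences only): 781 of 784 nearest-gene IDs matched. No mm9 genome was used, so no region sequence is shown. Members, the 19 gene lists and the alternatives were chosen with earlier results of these data known. Named are the 10 strongest regions in all 3 wt lists, the 4 strongest per class, up to 6 per kind of knockout absence, up to 8 genes with most regions, and up to 4 genes per list. Others are said to be named after their values were seen. Results for some genes are not reported here.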

Additional observations from a re-analysis of the deposited data

How the results depend on the processing

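The 7 summary values were recomputed under 10 alternatives, and 44 of 70 values stayed within 1.5 times the count or inside the 95% interval of the share. Leaving out a wt replicate gave 271 to 765 regions, 6.33% to 7.55% of the consensus, 95.9% to 100% with an E12KO peak, 91.6% to 98.9% with an E47KO peak, 90.8% to 98.9% with both, 49.1% to 53.7% in an exon and 21.2% to 25.1% in a 3' UTR. Without wt replicate 3 the members were peaks of wt replicate 2 and its annotation. Without wt replicate 2, 415 regions remained, because wt replicate 1 then had to list each one. Requiring both wt replicate 1 and wt replicate 2 left 330 regions (7.80% of the consensus), with 100% in E12KO, 98.8% in E47KO and 98.8% in both. Requiring the wt replicate 2 peak to carry 1 of these classes as well gave 98.1% in E12KO, 96.6% in E47KO and 95.6% in both, 5.03% of the consensus and 46.9% in an exon. Requiring cover of at least 50% of the peak, in the wt and the knockout overlaps alike, gave 90.4% in both knockouts. Leaving out the downstream class gave 5.78% of the consensus, 62.9% in an exon and 27.3% in a 3' UTR, which follows from the smaller total. The 5.03% likewise follows from counting fewer members over the same 12298 consensus regions. The cause of the other shifts was not tested. The midpoint rule, a −log10 q of at least 5 and the removal of peaks under 150 bp moved none of the 7 values by that much.

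No paired analysis was possible because each knockout has 1 library and shares no pairing with the wt replicates. Only wt replicate 1 has scores, the lists differ in length and read depth is unknown, so a missing peak does not show that binding was absent. Exon and intron calls differ between lists, and the part of peak edges in this was not tested.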
